A study of Mus musculus with 18 samples.

Results

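Iron handling in the mouse liver was followed through 8 genes, chosen by symbol from the 12019 genes of the authors' deposited table: hepcidin (Hamp), transferrin (Trf), the transferrin receptor (Tfrc), ferroportin (Slc40a1), ferritin heavy chain (Fth1), ferritin light chain (Ftl1), hemopexin (Hpx) and the ferritin receptor Scara5. All 8 were present in the table. The livers came from C57BL/6J mice that entered the study at 21 weeks of age and were treated for 8 weeks, and RNA was prepared from whole, perfused livers and selected for poly(A). There were 3 libraries each for 30% caloric restriction (CR), for rapamycin (42 mg/kg/day), for metformin (37.5 mg/kg/day) and for TM5614 (20 mg/kg/day), and 6 for mice fed ad libitum, by the labels. Rapamycin inhibits the kinase mTOR, metformin is a glucose-lowering drug and TM5614 is an inhibitor of the protease inhibitor PAI-1; all 3 were given in the chow. The sex of the mice is not given in the sources used here. Values are the authors' group means of normalized counts, with their log2 fold change and adjusted p for each intervention against ad libitum. Values of single livers could not be assigned to groups, so no SD is given, and a member was called changed where the adjusted p was under 0.05.

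Hepatocytes secrete hepcidin, a peptide hormone that binds the iron exporter ferroportin and causes its degradation, so that less iron leaves macrophages and the gut. Hepcidin transcription answers to iron through BMP and SMAD signalling and to inflammation through IL-6 and STAT3. Inside cells, iron regulatory proteins bind hairpins called iron responsive elements: in the leader of a messenger they hold back its translation, and in the trailer of the transferrin receptor messenger they protect it from decay. Ferritin cages of heavy and light chains store iron, transferrin carries it in plasma, and hemopexin carries free haem to the liver.

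The members' messengers carry these hairpins in different places, which is why they are shown first. A search of annotated transcripts for a C, 5 paired bases, the loop CAGTGN with any last base but G, and the 5 partner bases, with G-T pairs allowed, found 1 match in the 5′ UTR of each of Fth1, Ftl1 and Slc40a1 and 4 matches in the 3′ UTR of Tfrc. No such match stood in Hamp, Trf, Hpx or Scara5. Of all protein-coding genes searched, 0.112% held a match in a 5′ UTR and 0.477% in a 3′ UTR. The 5′ UTR matches included Alas2, described later. The loop is in capitals, in DNA letters of the sense strand, with mm10 positions.
Fth1, chr19:9982732-9982761, plus strand: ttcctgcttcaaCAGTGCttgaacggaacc
Ftl1, chr7:45459778-45459807, minus strand: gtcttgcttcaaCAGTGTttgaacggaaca
Slc40a1, chr1:45925464-45925493, minus strand: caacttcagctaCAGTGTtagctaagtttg
Tfrc, the first of 4, chr16:32631219-32631248, plus strand: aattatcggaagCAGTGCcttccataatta

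Among the 8 genes, Trf and Fth1 rose under CR, Scara5 rose under TM5614, and no member passed under rapamycin or metformin. Under CR 2 of 8 members were called and 6 were not, in a comparison where 19.0% of all genes with an adjusted p were called (9.74% higher and 9.24% lower). Under TM5614 1 of 8 was called, beside 3.96% of all genes (2.01% higher and 1.95% lower). Under rapamycin 0 of 8 were called by the authors' DESeq2 test, beside 1.39% of all genes (0.714% higher and 0.675% lower). Under metformin 0 of 8 were called, beside 0.245% of all genes (0.163% higher and 0.0816% lower). For both, the count was 0 at an adjusted p under 0.10 too, and the table gives no unadjusted p. The members' median log2 fold change was 0.14 under CR, 0.08 under rapamycin, 0.04 under metformin and -0.09 under TM5614 per the authors' deposited table, where the medians of all genes were 0.01, 0.00, 0.01 and -0.01. All 4 comparisons share the ad libitum group, and differences between interventions were not tested.

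**Figure D1:**
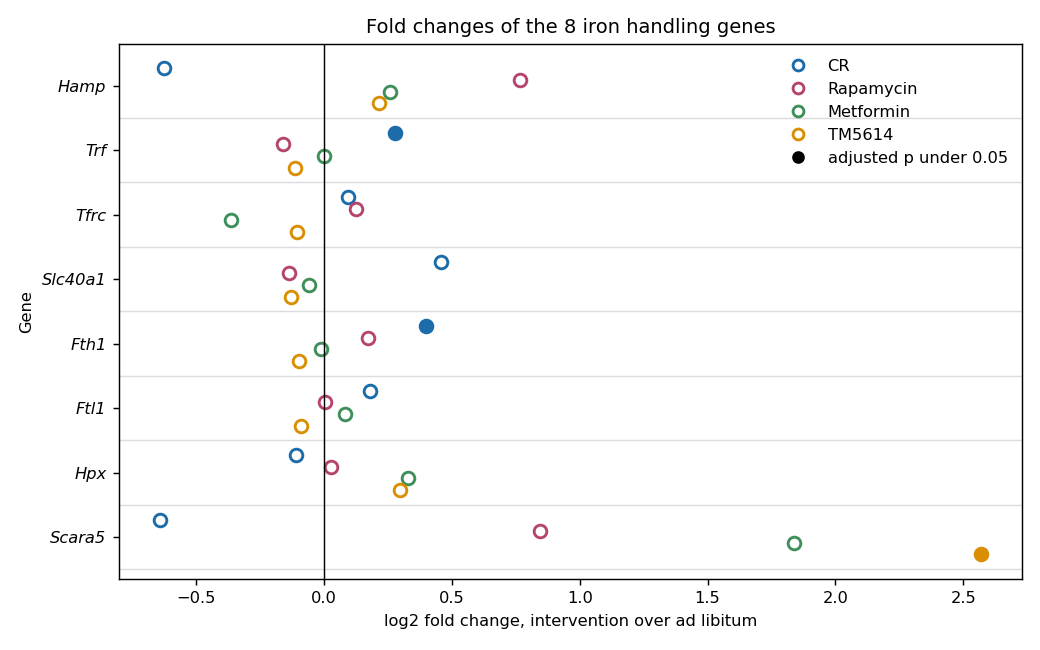
Log2 fold change of each of the 8 genes (rows) for each intervention over ad libitum (colours), with filled points at an adjusted p under 0.05. Filled points stand at Trf and Fth1 for CR and at Scara5 for TM5614, and Scara5 covers the widest range, from -0.64 to 2.57.

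**Figure D2:**
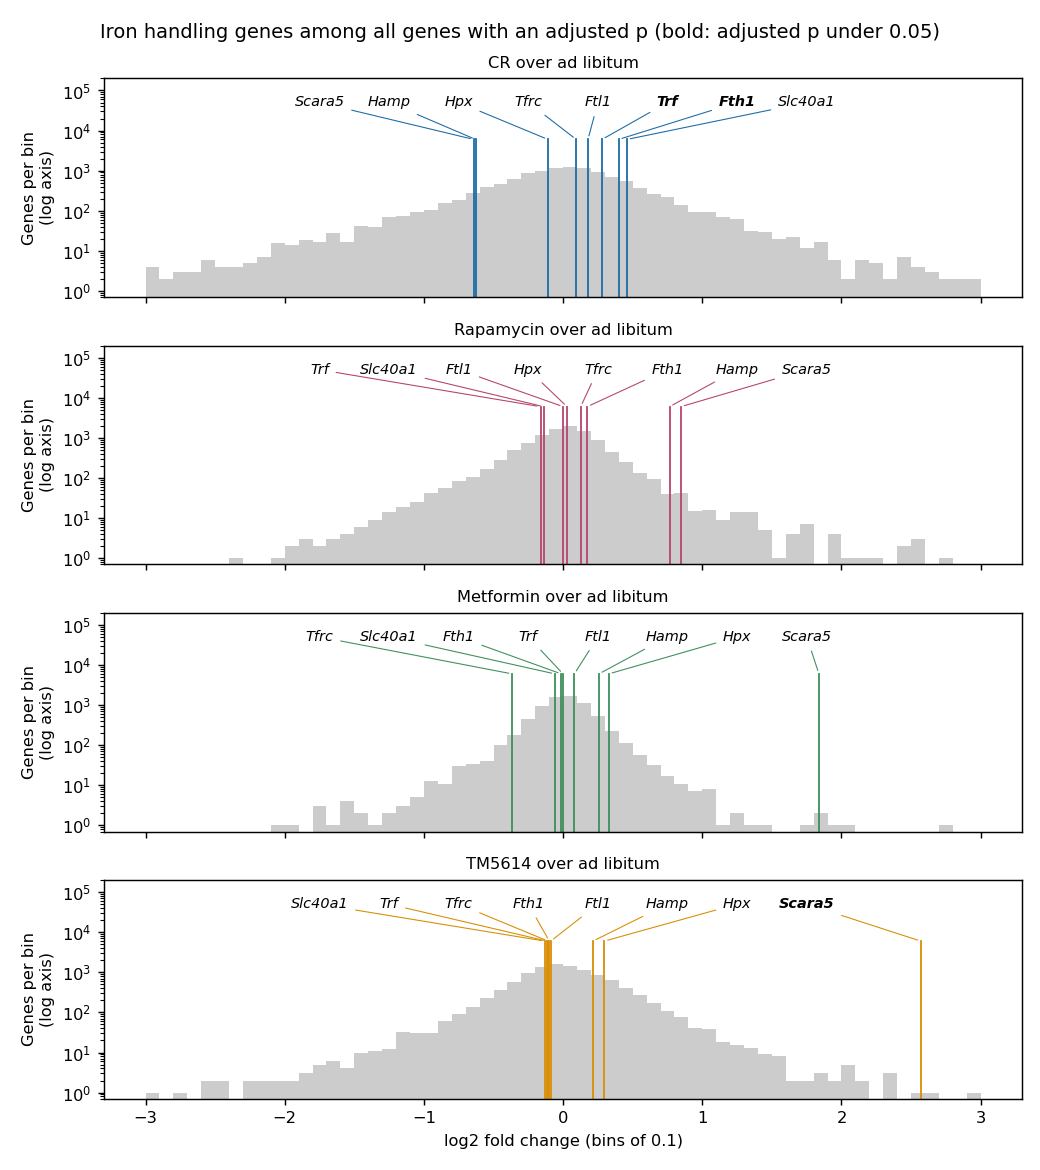
Number of genes per bin of log2 fold change (grey, log axis, bins of 0.1) for all genes with an adjusted p and a fold within the axis, with lines at the 8 members and bold names at an adjusted p under 0.05. Most members lie near the centre of each distribution, and Scara5 lies far to the right under metformin (1.84) and TM5614 (2.57).

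The members differed widely in level. Per kilobase of their main annotated transcript, the ad libitum means were 51452 normalized counts for Trf, 30194 for Ftl1, 19749 for Hpx, 13386 for Fth1 and 9262 for Hamp. On the same scale Slc40a1 stood at 328, Tfrc at 34.7 and Scara5 at 28.4. The plasma carriers, ferritin and hepcidin thus stood above the membrane proteins, and the spread within groups, needed to separate neighbours such as Tfrc and Scara5, was not available. The mean per kilobase of Scara5 was above that of Tfrc under all 3 compounds, at 51.0 and 37.8 under rapamycin, 102 and 26.9 under metformin, and 169 and 32.2 under TM5614. Under CR it was below, at 18.2 for Scara5 and 37.0 for Tfrc. Transferrin messenger alone made up 1.92% of the summed group means under CR, 1.49% under rapamycin, 1.59% under metformin, 1.57% under TM5614 and 1.69% ad libitum. These sums include the ribosomal RNA entry Rn45s. Its share was 0.472% under CR, 0.555% under rapamycin, 4.40% under metformin, 0.132% under TM5614 and 0.227% ad libitum. The Trf share under metformin is lowered by that entry, and the Trf means themselves were 132241 under metformin and 132284 ad libitum.

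**Figure D3:**
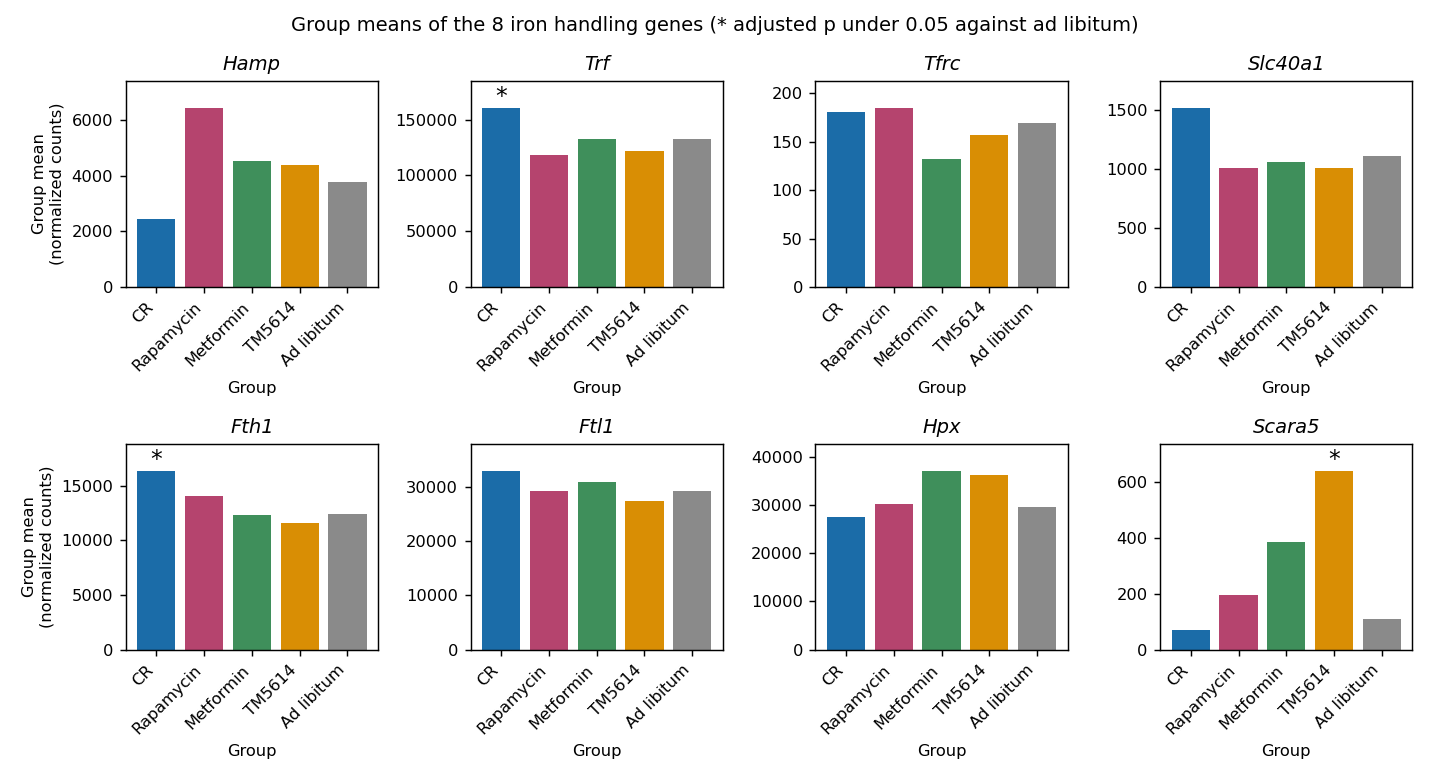
Group means in normalized counts (vertical axes from 0, a scale for each gene) for CR, rapamycin, metformin, TM5614 and ad libitum; stars mark an adjusted p under 0.05 and no error bars can be given. Hamp is lowest under CR (2458) and highest under rapamycin (6452), while Trf, Fth1, Ftl1 and Slc40a1 are highest under CR.

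Hepcidin had its lowest mean under CR and its highest under rapamycin, and no comparison with ad libitum passed. Hamp (mm10 chromosome 7, 30942368 to 30944032, minus strand, 3 exons) had means of 2458 under CR, 6452 under rapamycin, 4537 under metformin, 4404 under TM5614 and 3798 ad libitum. The mean under rapamycin was 2.63 times that under CR, a ratio between interventions that was not tested. In the authors' deposited table the log2 fold change was -0.63 under CR (adjusted p = 0.0995) and 0.76 under rapamycin (adjusted p = 0.161). For rapamycin, 2.55% of the 8550 tested genes that averaged 50 or more over the groups had a fold at least as large in size. For the Hamp fold under CR this share was 14.5%. Metformin and TM5614 gave 0.26 (adjusted p = 0.979) and 0.21 (adjusted p = 0.748) per the authors' deposited table.

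Mice have a closely related second gene, Hamp2, on the same strand of chromosome 7 (30922372 to 30924681), and how the counting divided reads that fit both is not given in the sources used here. Its means were 32.2 under CR, 10.9 under rapamycin, 33.6 under metformin, 15.5 under TM5614 and 27.2 ad libitum. Hamp2 thus stood at 1.31% of the Hamp mean under CR, 0.169% under rapamycin, 0.741% under metformin, 0.351% under TM5614 and 0.717% ad libitum. In the authors' deposited table none of the 3 adjusted p given for Hamp2 passed (0.847 under CR, 0.406 under rapamycin and 0.536 under TM5614).

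The promoters of this pair are set side by side because the signals known to drive hepcidin act there. The 120 bases before each RefSeq start site (GRCm38.p6) are printed, with capitals for GGCGCC, the core of a BMP response element, and for TTCTTGGAA, a STAT-binding sequence. Shifted by 3 bases, the best of several shifts tried, the Hamp window matched the Hamp2 sequence at 109 of 120 positions. The last 3 Hamp2 bases compared lie past its start site and are not printed.
Hamp, chr7:30944030-30944149, minus strand: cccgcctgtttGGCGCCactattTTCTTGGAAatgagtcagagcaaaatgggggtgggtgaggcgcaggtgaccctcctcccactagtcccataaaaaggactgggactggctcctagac
Hamp2, chr7:30924182-30924301, minus strand: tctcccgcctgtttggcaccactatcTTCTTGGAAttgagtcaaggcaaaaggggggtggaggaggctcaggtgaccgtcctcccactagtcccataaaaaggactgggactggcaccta
Hamp held GGCGCC from base -109 to -104 and TTCTTGGAA from -97 to -89. In Hamp2 TTCTTGGAA stood from -94 to -86, and no GGCGCC was found in the 250 bases searched. On both strands, 9.59% of 32851 promoter windows of 250 bases held GGCGCC and 0.365% held TTCTTGGAA. The wider TTCNNNGAA, which overlaps TTCTTGGAA, was found in 7.02%. These matches describe letters, not binding.

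Of 18 BMP and SMAD pathway genes matched from a list of 21 symbols, 1 rose under CR, 1 fell under rapamycin, 3 fell under TM5614, and none passed under metformin, where 3 had no adjusted p. Over all genes with an adjusted p, 9.74% rose under CR, 0.675% fell under rapamycin and 1.95% fell under TM5614. The receptor kinase gene Acvr1 had means of 103 under CR and 66.1 ad libitum, and the authors' deposited table gives it a log2 fold change of 0.65 (adjusted p = 0.0118). Bmp2, a ligand that liver endothelium makes, had means of 51.1 under rapamycin and 128 ad libitum (log2 fold change -1.32, adjusted p = 0.00233, per the authors' deposited table). The sinusoidal endothelial markers Stab1 and Stab2 also fell under rapamycin (-0.72 and -0.90, adjusted p = 0.00756 and 0.0293, per the authors' deposited table). All 8 markers of that list had lower means under rapamycin, where the other 6 did not pass, with a summed level of 1107 under rapamycin and 1794 ad libitum. Their log2 fold changes were negative for 7 of the 8 under CR, 7 under metformin and 6 under TM5614, and none passed there. The part of the endothelial markers in the Bmp2 result was not tested, and in bulk liver fewer cells of a type and less RNA per cell cannot be told apart.

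Under TM5614 the BMP and SMAD genes that fell were the inhibitory SMAD gene Smad7, the transcription factor gene Atoh8 and Tmprss6, whose protease restrains hepcidin. Smad7 had means of 70.0 under TM5614 and 149 ad libitum (log2 fold change -1.09, adjusted p = 0.0123, per the authors' deposited table). For Atoh8 the means were 104 under TM5614 and 251 ad libitum (-1.27, adjusted p = 0.0169, per the authors' deposited table). Tmprss6 had 3443 under TM5614 and 4276 ad libitum (-0.31, adjusted p = 0.0304, per the authors' deposited table). Smad7 and Tmprss6 did not pass in the other 3 comparisons, where their log2 fold changes lay between -0.50 and -0.13 per the authors' deposited table. Atoh8 did not pass there either, with -0.35 under CR, -0.16 under rapamycin and -0.92 under metformin (adjusted p = 0.549, 0.934 and 0.459).

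Bmp6, Id1, Tfr2 and Hfe, the other regulators chosen, did not pass in any comparison that gave an adjusted p; Bmp6 had none under metformin. Bmp6, the ligand that reports iron stores, had means of 27.1 under CR, 22.8 under rapamycin, 16.7 under metformin, 22.6 under TM5614 and 27.0 ad libitum. Id1, a direct BMP target, had means of 131 under CR, 101 under rapamycin, 63.3 under metformin, 55.6 under TM5614 and 65.4 ad libitum, with an adjusted p of 0.286 under CR per the authors' deposited table. The iron sensor gene Tfr2 had a log2 fold change of 0.23 under CR (adjusted p = 0.0729) per the authors' deposited table, and its partner Hfe -0.22 (adjusted p = 0.253). In the other 3 comparisons the log2 fold changes of Tfr2 and Hfe lay between -0.21 and 0.12 per the authors' deposited table.

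The plasma iron carrier Trf rose under CR, while the receptor that takes it up did not pass in any comparison. Trf (chromosome 9, 103204001 to 103230444, minus strand, 17 exons) had means of 160547 under CR, 118275 under rapamycin, 132241 under metformin, 122255 under TM5614 and 132284 ad libitum. The mean under CR was 1.21 times that of ad libitum livers, with a log2 fold change of 0.28 and an adjusted p of 0.0274 per the authors' deposited table. Under CR, 44.0% of the 8550 tested genes that averaged 50 or more over the groups had a fold at least as large in size. The 3 compounds gave -0.16, -0.00 and -0.11 for rapamycin, metformin and TM5614 per the authors' deposited table (adjusted p = 0.552, 0.999 and 0.581). Of the Trf exons, 2108 bases also belong to the annotated gene Gm20425 on the same strand. Of 6 hepatocyte markers, 3 rose under CR (Alb, Ass1 and Apob), 2 fell (Serpina1c and Ttr) and 1 did not pass, beside 9.74% of all genes higher and 9.24% lower. The part of these markers in the Trf result was not tested.

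Tfrc (chromosome 16, 32608920 to 32632794, plus strand, 19 exons) had means of 181 under CR, 185 under rapamycin, 132 under metformin, 157 under TM5614 and 169 ad libitum. The lowest mean, under metformin, had a log2 fold change of -0.36 and an adjusted p of 0.980 per the authors' deposited table. Under CR the log2 fold change was 0.09 per the authors' deposited table and -0.00 when the groups were scaled to their summed means without Rn45s and Lars2.

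Ferroportin had its highest mean under CR, where it did not pass. Slc40a1 (chromosome 1, 45908068 to 45926523, minus strand, 8 exons) had means of 1515 under CR, 1002 under rapamycin, 1061 under metformin, 1009 under TM5614 and 1104 ad libitum. The log2 fold change under CR was 0.46 with an adjusted p of 0.133 per the authors' deposited table, and under the compounds it lay between -0.14 and -0.06. Ferroportin is made by Kupffer cells, the liver's macrophages, as well as by hepatocytes. Of 10 Kupffer cell and macrophage markers, 4 fell under CR, 5 did not pass and 1 had no adjusted p, beside 9.24% of all genes lower. The summed level of these markers was 982 under CR and 1980 ad libitum. Without Marco, whose ad libitum mean of 261 stood far above its 4 intervention means of 27.3 to 44.5, the sums were 950 under CR and 1718 ad libitum. None of the 10 was at 0, and their part in the Slc40a1 values was not tested.

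Ferritin heavy chain rose under CR, and the light chain did not pass in any comparison. Fth1 (chromosome 19, 9980598 to 9985098, plus strand, 4 exons) had means of 16389 under CR, 14018 under rapamycin, 12330 under metformin, 11614 under TM5614 and 12435 ad libitum. The mean under CR was 1.32 times that of ad libitum livers (log2 fold change 0.40, adjusted p = 0.0350, per the authors' deposited table). Under CR, 29.8% of the 8550 tested genes that averaged 50 or more over the groups had a fold at least as large in size. The compounds gave 0.17, -0.01 and -0.10 for rapamycin, metformin and TM5614 per the authors' deposited table (adjusted p = 0.728, 0.998 and 0.777). Ftl1 (chromosome 7, 45457944 to 45459884, minus strand, 4 exons) had means of 33076 under CR, 29263 under rapamycin, 30915 under metformin, 27478 under TM5614 and 29228 ad libitum. Its log2 fold change under CR was 0.18 (adjusted p = 0.404) per the authors' deposited table. The difference between the chains was not tested. Ferritin genes have pseudogene copies, so the share of reads counted to each is uncertain, and Ftl1 exons share 109 bases with the annotated miRNA gene Gm22133 on the same strand and 355 bases with Gm10252 on the opposite strand.

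Among 6 genes that sense or release cell iron, 2 rose under CR, beside 9.74% of all genes with an adjusted p, and none passed under the 3 compounds. Ncoa4, the receptor that delivers ferritin to the lysosome, had means of 2658 under CR, 1576 under rapamycin, 1669 under metformin, 1980 under TM5614 and 1546 ad libitum. In the authors' deposited table its log2 fold change was 0.78 under CR (adjusted p = 1.5e-09) and 0.36 under TM5614 (adjusted p = 0.0554). Pcbp2, which encodes a chaperone that carries iron in the cytosol, had means of 1955 under CR and 1331 ad libitum (0.55, adjusted p = 1.65e-05, per the authors' deposited table). The genes of the iron regulatory proteins themselves did not pass: under CR Aco1 had 0.01 (adjusted p = 0.960) and Ireb2 -0.37 (adjusted p = 0.204) per the authors' deposited table. Under the compounds Aco1 lay between -0.04 and 0.07 and Ireb2 between -0.22 and -0.01 on the same scale.

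The haem carrier hemopexin did not pass in any comparison. Hpx (chromosome 7, 105591613 to 105600137, minus strand, 10 exons) had means of 27462 under CR, 30192 under rapamycin, 37142 under metformin, 36323 under TM5614 and 29604 ad libitum. The highest means, under metformin and TM5614, had log2 fold changes of 0.33 and 0.30 per the authors' deposited table (adjusted p = 0.913 and 0.507). Of 9 genes of haem and haemoglobin clearance, 1 rose and 1 fell under CR, beside 9.74% and 9.24% of all genes with an adjusted p. None of the 9 passed under the compounds, with 1 lacking an adjusted p under metformin. The haem oxygenase gene Hmox1, whose product breaks haem down and frees its iron, had means of 2514 under CR, 952 under rapamycin, 180 under metformin, 259 under TM5614 and 178 ad libitum. It rose under CR (log2 fold change 3.82, adjusted p = 0.00158, per the authors' deposited table), while rapamycin gave 2.42 with an adjusted p of 0.252. Abcg2, a pump that can carry porphyrins, had means of 466 under CR and 671 ad libitum (-0.53, adjusted p = 0.00336, per the authors' deposited table).

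Haem synthesis genes changed in both directions under CR: of 13, 3 rose, 5 fell and 5 did not pass, while 1 fell under TM5614 and none passed under rapamycin or metformin. Over all genes with an adjusted p, 9.74% rose and 9.24% fell under CR, and 1.95% fell under TM5614. Alas2, the erythroid form of the enzyme that starts haem synthesis, had means of 152 under CR, 727 under rapamycin, 684 under metformin, 700 under TM5614 and 766 ad libitum (log2 fold change -2.34 under CR, adjusted p = 4.59e-28, per the authors' deposited table). Its ubiquitous counterpart Alas1 did not pass under CR (0.39, adjusted p = 0.444) or TM5614 (0.87, adjusted p = 0.0922) per the authors' deposited table. The mitochondrial transporter Abcb10 fell under CR (-0.65, adjusted p = 1.46e-05, per the authors' deposited table). Abcb6, a porphyrin transporter, rose (0.46, adjusted p = 2.82e-04, per the authors' deposited table). Tmem14c, which moves a haem precursor within mitochondria, fell under TM5614 (-0.30, adjusted p = 0.0368, per the authors' deposited table). Alas2 was also on the list of erythroid markers, of which 4 of 10 could be matched. The globin genes Hba-a1, Hba-a2 and Hbb-b1 had means of 128, 394 and 42.2 under CR and 69.5, 153 and 19.4 ad libitum, higher where Alas2 was lower, and none passed in any comparison. Hbb-b1 had no adjusted p under metformin.

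Scara5, a scavenger receptor that binds ferritin and takes it up, rose under TM5614. Scara5 (chromosome 14, 65666403 to 65764826, plus strand, 9 exons) had means of 69.1 under CR, 194 under rapamycin, 386 under metformin, 640 under TM5614 and 108 ad libitum. The mean under TM5614 was 5.94 times that of ad libitum livers, with a log2 fold change of 2.57 and an adjusted p of 0.00244 per the authors' deposited table. A fold as large in size was found in 0.105% of the 8550 genes that had an adjusted p for TM5614 and averaged 50 or more over the groups. Metformin gave 1.84, rapamycin 0.85 and CR -0.64 per the authors' deposited table, and none of these passed (adjusted p = 0.234, 0.646 and 0.516). Set against the mean of the other 3 interventions in place of ad libitum, the log2 ratio under TM5614 was 1.57, with no test. None of 9 stellate cell and fibroblast markers passed under TM5614, where their summed level was 2290, against 2569 ad libitum. Their log2 fold changes under TM5614 were positive for 2 and negative for 7, with a median of -0.17. Lrat, 1 of the 2, had 0.00 per the authors' deposited table. The part of these markers in the Scara5 values was not tested.

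Steap4 and Lcn2, of the list for iron uptake, reduction and export, rose under both rapamycin and TM5614. Of 11 genes matched from 13, 1 fell under CR, 2 rose under rapamycin, none passed under metformin and 3 rose under TM5614, with 1 lacking an adjusted p under rapamycin and under metformin. Over all genes with an adjusted p, 9.24% fell under CR, 0.714% rose under rapamycin and 2.01% rose under TM5614. Steap3, a ferrireductase known from erythroid endosomes, had means of 113 under CR and 216 ad libitum (-0.94, adjusted p = 0.00811, per the authors' deposited table). Its relative Steap4, a metalloreductase induced in inflammation, had means of 1310 under CR, 7179 under rapamycin, 2737 under metformin, 7752 under TM5614 and 1873 ad libitum. The log2 fold change of Steap4 was 1.94 under rapamycin (adjusted p = 0.0136) and 2.05 under TM5614 (adjusted p = 0.00322) per the authors' deposited table. Slc39a14, the carrier that brings iron not bound to transferrin into hepatocytes, rose under TM5614, with means of 4619 under TM5614 and 2453 ad libitum (0.91, adjusted p = 0.0334, per the authors' deposited table). Lipocalin 2 (Lcn2), which binds bacterial iron carriers, had means of 981 under rapamycin, 746 under TM5614 and 79.3 ad libitum (3.63 and 3.23, adjusted p = 0.0388 and 0.0447, per the authors' deposited table). Its means were also above ad libitum under CR and metformin, at 285 and 523, without passing (1.85 and 2.72, adjusted p = 0.213 and 0.432).

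Genes of the IL-6, STAT3 and acute phase list, which share an inducing signal with hepcidin, were followed beside it. Of 16, 2 rose and 2 fell under CR, 1 rose under rapamycin, 1 rose under metformin and 4 rose under TM5614. Lcn2, already counted among the iron uptake genes, was the 1 under rapamycin and 1 of the 4 under TM5614. Over all genes with an adjusted p, 9.74% rose and 9.24% fell under CR. The share of all genes that rose was 0.714% under rapamycin, 0.163% under metformin and 2.01% under TM5614. Under rapamycin and under TM5614 all 16 had positive log2 fold changes per the authors' deposited table, with medians of 0.47 and 0.54. The medians of all genes were 0.00 under rapamycin and -0.01 under TM5614. Stat3 rose under TM5614 (means of 2049 under TM5614 and 1277 ad libitum, log2 fold change 0.68, adjusted p = 0.0102, per the authors' deposited table), as did Saa1 (3.30, adjusted p = 0.00396) and Saa2 (3.68, adjusted p = 0.0129). Saa1 also rose under metformin (3.45, adjusted p = 0.0121, per the authors' deposited table). Under rapamycin Saa1 had 2.71 (adjusted p = 0.0515) and Saa2 3.11 (adjusted p = 0.0848), and under metformin Saa2 had 3.59 (adjusted p = 0.0866). Under CR Saa1 and Saa2 had -1.26 and -1.51 (adjusted p = 0.296 and 0.317), so these folds did not pass. Hamp, beside the genes of this list, did not pass under any of the compounds. Under CR the receptor gene Il6ra rose (1.36, adjusted p = 3.26e-05) and so did Orm2 (2.49, adjusted p = 0.00948), while the fibrinogen chains Fga and Fgg fell (both -0.48, adjusted p = 0.0454 and 0.0486) per the authors' deposited table. Neutrophil markers, 3 matched of 6, had a summed level of 148 under rapamycin and 56.6 under TM5614, against 92.3 ad libitum. In each of these comparisons 2 did not pass and 1 had no adjusted p, and their part in these values was not tested.

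Of 20 genes listed for mitochondrial iron and iron-sulfur clusters, 3 rose and 3 fell under CR, beside 9.74% and 9.24% of all genes with an adjusted p. None passed under the compounds, with 1 lacking an adjusted p under rapamycin and 2 under metformin. The 3 listed genes that rose were Fth1, the mitoferrin gene Slc25a28 and Isca1. Fth1 is also 1 of the 8 members, so its rise is the one given above, and ferritin heavy chain is not specific to mitochondria. The ferredoxin Fdx1, its reductase Fdxr and the cluster carrier Nfu1 fell (-0.36, -0.47 and -0.36, adjusted p = 0.0261, 0.0307 and 0.0307, per the authors' deposited table). Of 7 hypoxia regulators, which also act on iron genes, none passed under rapamycin or metformin. Of the same 7, 4 rose under CR and 1 under TM5614, beside 9.74% and 2.01% of all genes with an adjusted p. Epas1, the gene of HIF-2 alpha, rose under both, with log2 fold changes of 0.73 under CR (adjusted p = 3.56e-05) and 0.63 under TM5614 (adjusted p = 0.00375) per the authors' deposited table. The others that rose under CR were the hydroxylase gene Egln2 (0.50, adjusted p = 0.00712), Arnt (0.54, adjusted p = 0.0145) and Hif1a (0.57, adjusted p = 0.0286) per the authors' deposited table.

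Set beside the all-gene medians of 0.01 under CR and -0.01 under TM5614, the lists lay on both sides. Under CR the median log2 fold change was 0.50 for the hypoxia regulators, 0.14 for the BMP and SMAD genes, 0.13 for haem clearance, 0.11 for the acute phase list, 0.08 for iron sensing, -0.01 for iron uptake, -0.08 for mitochondrial iron and -0.10 for haem synthesis. Under TM5614 it was 0.54 for the acute phase list, 0.09 for the hypoxia regulators, 0.08 for iron uptake, 0.02 for iron sensing, -0.05 for haem clearance, -0.13 for haem synthesis, -0.14 for mitochondrial iron and -0.14 for the BMP and SMAD genes. Under rapamycin the medians ran from -0.02 for mitochondrial iron to 0.47 for the acute phase list, and under metformin from -0.10 for the BMP and SMAD genes to 0.17 for the acute phase list.

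**Figure D4:**
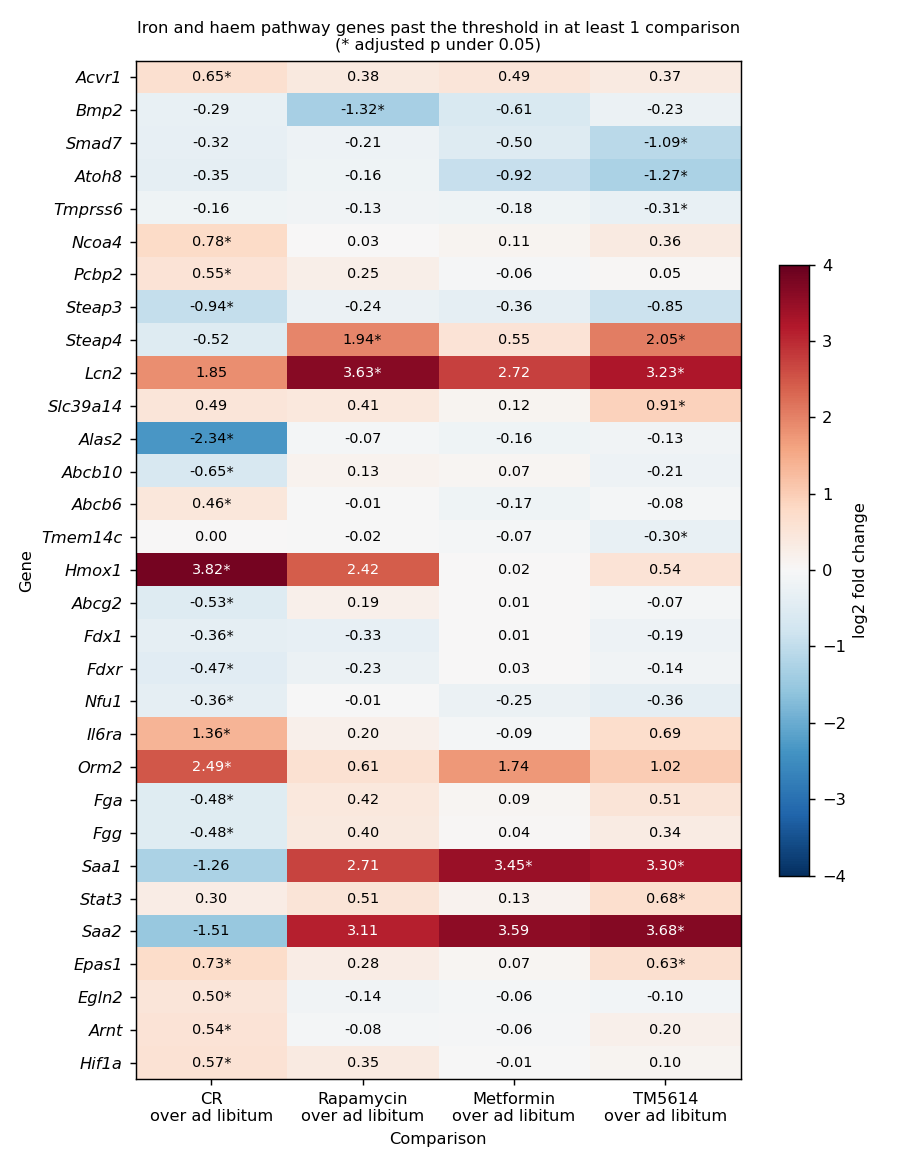
Log2 fold change against ad libitum (colour and printed number) of the named pathway genes (rows) under each intervention (columns), with stars at an adjusted p under 0.05. Hmox1 (3.82) and Alas2 (-2.34) stand out under CR, and Lcn2 and Steap4 are starred under both rapamycin and TM5614.

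The 6 hepatocyte markers, all present, had a median log2 fold change of 0.10 under CR, with positive folds for 3 and negative folds for 3. Alb, the albumin gene, had means of 858112 under CR and 606485 ad libitum (0.50, adjusted p = 1.7e-05, per the authors' deposited table). Ass1 and Apob also rose (0.55 and 0.40, adjusted p = 0.0176 and 0.0303, per the authors' deposited table). Serpina1c and Ttr fell under CR (-0.45 and -0.34, adjusted p = 0.00558 and 0.0274, per the authors' deposited table), and Apoa1 had -0.19 (adjusted p = 0.467). The summed means of the 6, 1068272 under CR and 839608 ad libitum, were mostly Alb. The summed Kupffer cell markers stood at 0.496 of the ad libitum level under CR and between 0.709 and 0.792 under the compounds, and without Marco at 0.553 under CR and between 0.801 and 0.887 under the compounds. Sinusoidal endothelial markers stood at 0.617 under rapamycin and 0.675 under metformin. No marker that could be matched was at 0 in any group, and the part of these markers in the members' values was not tested.

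**Figure D5:**
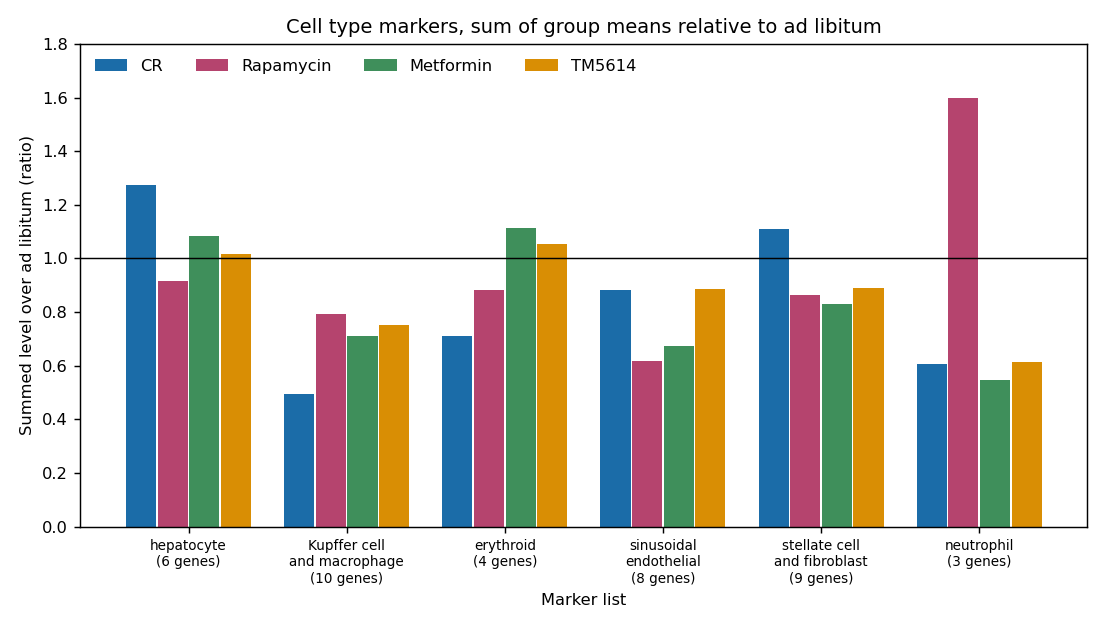
Sum of the group means of each marker list divided by its ad libitum sum (line at 1), for CR, rapamycin, metformin and TM5614; the number of genes is under each list. The lowest bars for Kupffer cells are those of CR (0.496), and for sinusoidal endothelium those of rapamycin (0.617).

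The genes closest to each member were found by the distance between their 4 log2 fold changes, over 8551 genes with a mean of at least 50 in the authors' deposited table. Hamp had Mical2 (distance 0.22) and Foxq1 (0.27) nearest, and Foxq1 had means of 330 under CR, 766 under rapamycin, 475 under metformin, 496 under TM5614 and 435 ad libitum. Slc40a1 had Egln2 (0.05) and Pcdh1 (0.06) nearest, and Trf had the lysosomal channel gene Mcoln1 (0.04) and Mettl7a1 (0.07). For Fth1 they were Kcmf1 (0.04) and Sar1b (0.06), for Ftl1 Rps3a (0.03) and Cox5a (0.04), for Tfrc Clic4 (0.07) and Tbl1x (0.10), and for Hpx Atf7ip (0.07) and Zfp710 (0.10). Nearest to Scara5 were B3galt1 and C4a, at larger distances of 0.85 and 1.03. The distance is not scaled for the size of the folds, and 0.105% of genes had a fold as large as that of Scara5 under TM5614. B3galt1 had log2 fold changes of -1.12 under CR, 0.44 under rapamycin, 1.31 under metformin and 2.33 under TM5614, in the same order as Scara5. C4a had means of 134 under CR, 177 under rapamycin, 539 under metformin, 1186 under TM5614 and 191 ad libitum. The distances rest on 4 comparisons that share the ad libitum group and carry no test.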

How the data were processed

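Liver RNA was sequenced from 5 groups of mice, and reads were aligned with HISAT2 2.0.5 to mm10, per the submitters' processing notes. Which program counted reads, with what strand setting and gene models, is not given in the sources used here. Per the file headers, the deposited table holds 1 signal column per group, by its values the mean normalized count, made by the authors with DESeq2 as the table's name states. It also holds the authors' log2 fold changes and adjusted p-values against the control, which were used as deposited. Another table holds 18 columns that no label identifies, and they were not used; the depth of each library is therefore unknown and no SD, interval or test per library was made. The smallest means above 0 were 0.299 to 0.398 in the 4 intervention groups of 3 libraries and 0.315 to 0.350 in the ad libitum group, and the number of the 6 labelled libraries averaged there is unknown. Nothing in the labels says whether libraries share animals or batches, so the adjusted p measure only the spread between these libraries.

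The members and lists were chosen with earlier results of these data known, so that no list was tested. A called gene had an adjusted p under 0.05. Named beside the members were up to 4 called genes of each list and comparison, fixed regulators of hepcidin and of haem as values, and the 2 genes nearest each member; the globins, the hepatocyte markers, Stab1, Stab2, Lrat and Marco were named as markers, and Hamp2 as the copy of Hamp, while Slc25a28 and Isca1 were named after their values were seen, to complete a count of 3. One gene that this rule names is not reported here. Coordinates, transcript lengths and UTRs are those of GENCODE vM21 (mm10), and the per-kilobase level divides a group mean by the length of the principal transcript. Promoters are those of RefSeq, present for 5 of the 8 members. Scripts ran in Python 3.11.15 with matplotlib 3.10.9. The distance search was run on simulated data with pairs planted at folds far outside the rest. Most members lie near the centre of the folds, so that run checks the code and not how reliable their neighbours are.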

Additional observations from a re-analysis of the deposited data

How the results depend on the processing

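The 2 members called under CR (Trf and Fth1) depended on the threshold: 3 passed at an adjusted p under 0.10, where Hamp joined them, 0 at an adjusted p under 0.01, and 0 when a log2 fold change of at least 0.5 in size was also asked. Scara5 under TM5614 passed under each of these settings, and no member passed under rapamycin or metformin in any of them. Against ad libitum, 128 folds recomputed from the group means with a pseudocount of 1 or 10, centred on the median gene, or scaled to the summed means without Rn45s and Lars2 moved by at most 0.11 on the log2 scale; 3 changed sign, all of uncalled folds no larger than 0.09 (Tfrc under CR and Ftl1 under rapamycin). Against the mean of the other 3 interventions, 4 of 32 folds changed sign, none of them called (Hamp under TM5614, and Ftl1, Hpx and Scara5 under rapamycin). Scara5 moved most there: its log2 ratio was 1.57 under TM5614, 0.36 under metformin, -0.91 under rapamycin and -2.56 under CR, against 2.57, 1.84, 0.85 and -0.64 on ad libitum. Scaling to the summed means lowered folds under CR by 0.10. The pseudocount settings add 1 or 10 to the same group means, the smallest of which was 69.1, so they could move folds little. Requiring a mean of at least 10 gave a share of called genes of 19.7% under CR, against 19.0% without it. The shares under the 3 compounds were the same with and without this filter, so it does not test them. The sum of Kupffer cell markers without Marco was chosen after seeing the data. No paired analysis was possible because the columns of single libraries carry no replicate number of the labels, and for that reason the limma fit and leaving out each replicate were not run. Without values per library, a call that rests on 1 liver cannot be recognised.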

Other observations

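The authors' deposited table has a further column of log2 fold changes headed TM5441, a compound that no label names, with no group mean and no adjusted p. For the 8 members this column gives 1.78 for Scara5, 0.75 for Hamp, 0.14 for Ftl1, 0.13 for Slc40a1, 0.06 for Hpx, 0.04 for Fth1, -0.16 for Trf and -0.63 for Tfrc. Scara5 was thus the member with the highest value there, as it was under TM5614 (2.57), metformin (1.84) and rapamycin (0.85) in the authors' deposited table. What the TM5441 values were compared with is not stated, so they are given as values only.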
